A study of Mus musculus with 12 samples.

Results

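The genes described here are 37 genes of pattern recognition and NF-kB signalling, the pathway by which cells detect microbial products and switch on inflammatory genes. They were chosen by name, and each was read from the probe sets annotated with that symbol alone. Of the 37, 33 were measured, among the 19935 genes that had such a probe set, and each of the 33 had 1 probe set. Tlr5, Irak4, Ripk2 and Nfkb1 had none and were not analysed here. The 33 comprise 9 Toll-like receptors, 3 co-receptors, 6 adaptors and kinases, 2 NOD receptors, 2 C-type lectin receptors, 3 NF-kB subunits, 4 IkB proteins and 4 further regulators.

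The samples were RNA labelled as colon epithelial cells of male mice 8 to 10 weeks old, hybridised to Affymetrix arrays, with 3 arrays in each of 4 groups. TG DSS mice carried a Villin-Claudin-2 transgene (Cl-2TG) and were given 4% (w/v) dextran sulfate sodium (DSS), a polymer that injures the colon lining, to drink for 10 days. WT DSS mice were wild-type littermates on the same 4% DSS, TG water mice were transgenic on normal water, and WT water mice were wild type on normal water. Villin is a protein of the epithelial brush border, and claudin-2 is a channel-forming tight junction protein. The transgene is named for both. Many of these genes are best known in leukocytes, and whether the transgene bears on leukocytes was not tested. The series asked how claudin-2 affects the mucosa at rest and in DSS injury. No label says that each array came from its own mouse, so p-values measure the spread between these arrays, which may be technical.

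Toll-like receptors at the cell surface recognise bacterial lipids and proteins, and those in endosomes recognise nucleic acids. Most signal through the adaptor MyD88 and IRAK kinases to TRAF6, while NOD proteins sense peptidoglycan fragments in the cytosol and C-type lectins sense fungal and mycobacterial glycans and products of dead cells. These routes meet at NF-kB, a family of dimeric transcription factors that IkB proteins hold back until they are degraded. NF-kB in turn induces several of its own inhibitors, among them IkB-alpha and A20, so that the transcripts of these inhibitors are a common readout of the pathway. In the healthy colon, epithelial cells carry some of these sensors and resident and recruited myeloid cells carry many more.

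Signals are on a log2 scale, with 0 as a probe set's median of all 12 arrays. Values therefore compare arrays and say nothing of which gene is the more abundant, and no gene can be called absent. Of the 28815 probe sets, the number lying over 1 log2 unit away from 0 was 677, 3795 and 1035 on WT DSS replicates 1, 2 and 3, 53 to 285 on the TG DSS arrays and 22 to 91 on the 6 water arrays. The 11 pan-epithelial markers had a median of -1.99 on WT DSS replicate 2 and between -0.17 and 0.11 on the other 11 arrays. The 12 macrophage and monocyte markers had medians of 0.93, -0.32 and -0.16 on TG DSS replicates 1 to 3 and of 1.05, 2.31 and -0.06 on WT DSS replicates 1 to 3, against -0.36 to 0.16 on the water arrays. The 10 neutrophil markers had medians of 0.89, -0.02 and -0.02 on the TG DSS arrays and of 1.79, 3.88 and 0.29 on the WT DSS arrays, against -0.25 to 0.00 on water. Summed over the list, macrophage markers ran from -3.38 to 9.71 in TG DSS, -0.77 to 26.16 in WT DSS, -4.40 to 0.84 in TG water and -1.05 to 2.70 in WT water. Neutrophil sums ran from -0.44 to 7.91 in TG DSS, 1.49 to 28.94 in WT DSS, -1.43 to 0.66 in TG water and -2.19 to -0.08 in WT water. DSS minus water was above 0 for 11 of the 12 macrophage markers and 8 of the 10 neutrophil markers in each genotype, and the pan-epithelial sum lay outside -1.97 to 1.97 on 1 array only, WT DSS replicate 2, at -21.70. Cldn2 itself read -0.24, 0.27 and 0.15 in TG DSS and -0.53, -2.28 and -0.12 in WT DSS. On water it read 0.36, 0.18 and -0.02 in TG and -0.04, 0.02 and 0.11 in WT (TG minus WT 0.14 ± 0.44 on water; limma adjusted p = 1). The groups overlap on water, so Cldn2 gives no check of the genotype labels.

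**Figure D1:**
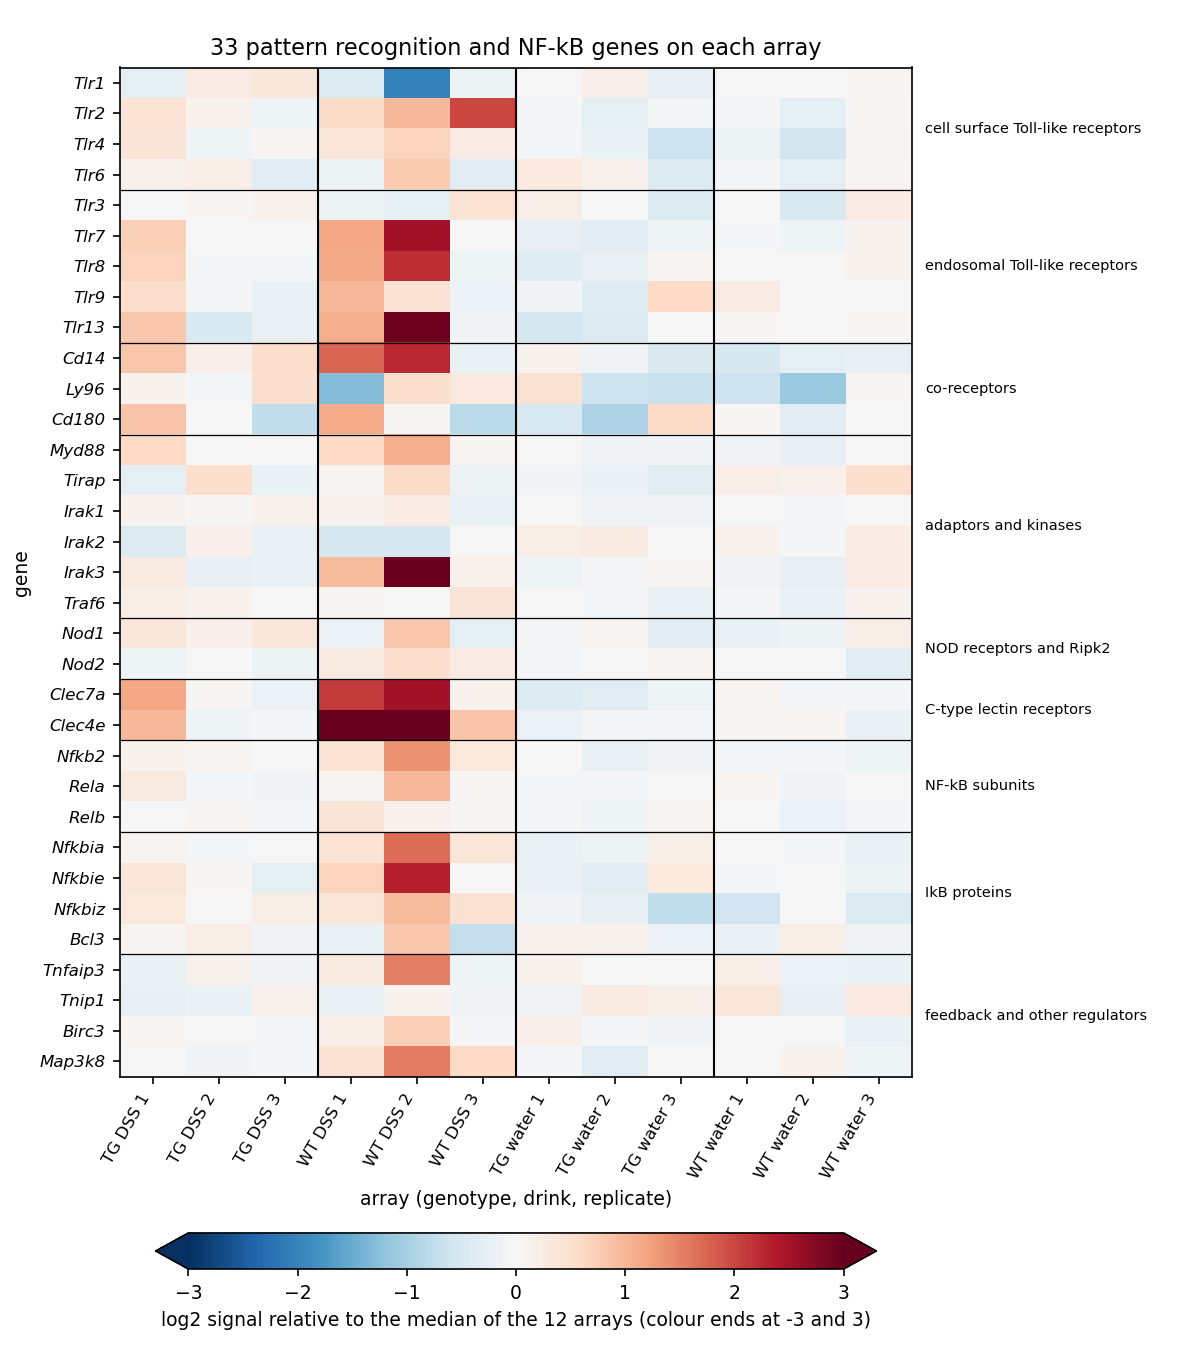
Heat map of the 33 measured genes (down, by role) on the 12 arrays (across), coloured by log2 signal with each gene's median at 0. WT DSS replicate 2 is red over most of the genes and reaches 5.04 for Clec4e, WT DSS replicate 1 and TG DSS replicate 1 are paler, and WT DSS replicate 3 is near 0 apart from a few genes led by Tlr2 at 2.00.

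In WT mice DSS was accompanied by higher values of most of these genes, most of all of the lectin receptor Clec4e. The arrays of DSS and water were fully separate and higher under DSS for 13 of the 33, and separate and lower for 1. No gene of the 33 passed the test, which was limma over all 19935 genes with Benjamini-Hochberg adjustment and a threshold of 0.05. Over all genes 0.171% passed. At an unadjusted p under 0.05 there were 17 of the 33, namely 16 higher and 1 lower, where 15.2% of all genes reached that level. The median difference of the 33 was 0.46 on the log2 scale and 28 lay above 0, whereas the median of all genes was -0.04. The 3 DSS arrays all lay above the 3 water arrays for 13 of the 33 (39.4%), against 5.45% of all genes, and all lay below them for 1, Tlr1, against 10.7% of all genes. In such bulk samples more cells of a type cannot be told apart from more RNA per cell.

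Among the cell surface receptors, Tlr2, which senses bacterial lipoproteins, had its highest value of the 12 arrays on WT DSS replicate 3. Tlr4 and Tlr6 had theirs on WT DSS replicate 2. Tlr1 had its own on TG DSS replicate 3, though within WT DSS it too was highest on replicate 3. Tlr2 read 0.55, 0.97 and 2.00 in WT DSS replicates 1, 2 and 3, against -0.04, -0.30 and 0.03 in WT water replicates 1, 2 and 3. The groups do not overlap, and the highest value belongs to WT DSS replicate 3, on which macrophage and endothelial markers had medians of -0.06 and -0.29, neutrophil markers of 0.29 and T and NK cell markers of 0.54, the last being their highest of the 12 arrays. The part of these cells in the Tlr2 values was not tested. The difference was 1.28 ± 0.30 (SE, with 3 arrays in each group; adjusted p = 0.107 in limma), or 2.42-fold.

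Tlr4, the receptor of bacterial lipopolysaccharide, read 0.37, 0.66 and 0.25 in WT DSS and -0.16, -0.56 and 0.08 in WT water. The groups are separate but close, and the difference was 0.64 ± 0.21 (limma adjusted p = 0.206). Tlr1, which pairs with Tlr2 on triacylated lipoproteins, went the other way, with -0.41, -2.03 and -0.15 in WT DSS against 0.01, -0.01 and 0.05 in WT water. All 3 DSS values are lower, and most of the difference of -0.88 ± 0.40 (limma adjusted p = 0.334) lies in replicate 2, the array with low pan-epithelial markers. Tlr6, the other partner of Tlr2, was high only in WT DSS replicate 2, at 0.79, against -0.16 and -0.33 in replicates 1 and 3.

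Of the endosomal receptors, Tlr7 binds single-stranded RNA, Tlr8 does so in human cells, and Tlr13 binds bacterial ribosomal RNA. These 3 had similar profiles. Tlr7 read 1.16, 2.51 and 0.00 in WT DSS replicates 1, 2 and 3, against -0.04, -0.14 and 0.11 in WT water. Tlr8 read 1.14, 2.22 and -0.13 in WT DSS, against 0.01, -0.01 and 0.11 in WT water. Tlr13 read 1.10, 2.95 and -0.09 in WT DSS, against 0.04, -0.02 and 0.03 in WT water. Replicate 3 lies among the WT water arrays for Tlr7 and below them for Tlr8 and Tlr13. For each of the 3, replicates 1 and 2 lie far above the WT water arrays, so that the groups overlap. Their differences were 1.25 ± 0.49, 1.04 ± 0.46 and 1.30 ± 0.62, with limma adjusted p-values of 0.273, 0.321 and 0.353. On the same WT DSS arrays the macrophage markers had this order, Csf1r at 1.03, 2.22 and -0.24 and Adgre1 at 0.93, 2.11 and -0.04. So did S100a8 of neutrophils (2.96, 4.47 and 0.65), Pecam1 of endothelium (0.82, 3.08 and -0.54) and Col1a1 of fibroblasts (1.53, 2.26 and -0.43). The T cell marker Cd3e, at 0.19, 0.98 and 0.75, did not. The part of any of these cell types in the differences of Tlr7, Tlr8 and Tlr13 was not tested. Tlr3, the receptor of double-stranded RNA, stood apart from the 3, with -0.16, -0.27 and 0.41 in WT DSS against -0.02, -0.46 and 0.25 in WT water.

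Tlr9, which detects unmethylated CpG DNA, and Cd180, a Toll-like receptor homologue of B cells, were highest on replicate 1 in WT DSS. Tlr9 read 0.99, 0.44 and -0.18 and Cd180 read 1.11, 0.09 and -0.82 on WT DSS replicates 1, 2 and 3. Medians of the 6 measured B cell markers on these arrays were 1.59, -0.24 and -1.27, with sums from -6.90 to 8.92 in WT DSS and -1.40 to 1.17 in WT water, and whether B cells account for either gene was not tested. Neither gene's WT groups are separate, with differences of 0.34 ± 0.32 for Tlr9 and 0.21 ± 0.54 for Cd180 (limma adjusted p = 0.674 and 0.9).

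Cd14, which hands lipopolysaccharide to Tlr4, read 1.75, 2.26 and -0.20 in WT DSS replicates 1, 2 and 3, against -0.47, -0.27 and -0.24 in WT water. The groups are separate only by the gap of -0.20 to -0.24, since replicate 3 sits just above the water arrays while the other replicates lie far above them. Its difference was 1.60 ± 0.50 (limma adjusted p = 0.187), or 3.03-fold. Ly96, which encodes MD-2, the lipopolysaccharide-binding partner of Tlr4, was among the most scattered of these genes. It read -1.31, 0.49 and 0.30 in WT DSS and -0.63, -1.12 and 0.05 in WT water, and the groups overlap widely.

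Both C-type lectin receptors were well above water on WT DSS replicates 1 and 2. Clec4e encodes Mincle, a receptor of mycobacterial glycolipid and of a protein released by dead cells, and read 3.42, 5.04 and 0.86 in WT DSS replicates 1, 2 and 3, against 0.04, 0.05 and -0.19 in WT water. All 3 DSS arrays exceed all water arrays, and the difference of 3.14 ± 0.80 was the largest of the 33 (8.82-fold; limma adjusted p = 0.128). Clec7a, which encodes the beta-glucan receptor dectin-1, read 2.09, 2.51 and 0.10 in WT DSS and 0.05, -0.06 and -0.03 in WT water. Its replicate 3 exceeds the highest water array by little, and the difference was 1.58 ± 0.54 (limma adjusted p = 0.217). The neutrophil marker S100a8 read 2.96, 4.47 and 0.65 on the same WT DSS arrays, highest on replicate 2 and lowest on replicate 3. Clec4e and Clec7a shared this order, as did Csf1r, Adgre1, Pecam1 and Col1a1. It held for 21 of the 33 and for 17.8% of all genes, and the part of any cell type was not tested.

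Of the adaptors and kinases, Myd88, the adaptor of most Toll-like receptors, read 0.59, 1.10 and 0.07 in WT DSS and -0.11, -0.24 and -0.02 in WT water. The groups do not overlap, and the difference was 0.71 ± 0.24 (limma adjusted p = 0.205). Irak3, an IRAK family member without kinase activity that restrains the pathway, read 0.95, 2.96 and 0.13 in WT DSS against -0.08, -0.24 and 0.24 in WT water. It overlaps through replicate 3, and its difference was 1.37 ± 0.55 (limma adjusted p = 0.281). Irak2, a kinase that sustains signalling, was the 1 gene lower at an unadjusted p under 0.05, with -0.48, -0.51 and -0.02 in WT DSS against 0.12, -0.04 and 0.23 in WT water (difference -0.44 ± 0.17; limma adjusted p = 0.264). Tirap, Irak1 and Traf6, an adaptor, a kinase and the ubiquitin ligase below them, differed by -0.11 ± 0.23, 0.05 ± 0.11 and 0.19 ± 0.13, and in all 3 the WT groups overlap.

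Nod2, the cytosolic sensor of muramyl dipeptide, had a small difference with little scatter. It read 0.26, 0.50 and 0.25 in WT DSS and -0.01, -0.02 and -0.33 in WT water. The groups are separate, and the difference of 0.46 ± 0.11, or 1.37-fold, had an adjusted p of 0.107 in limma. Nod1, its relative for another peptidoglycan fragment, read -0.17, 0.82 and -0.30 in WT DSS and -0.22, -0.15 and 0.19 in WT water, so only replicate 2 was high.

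**Figure D2:**
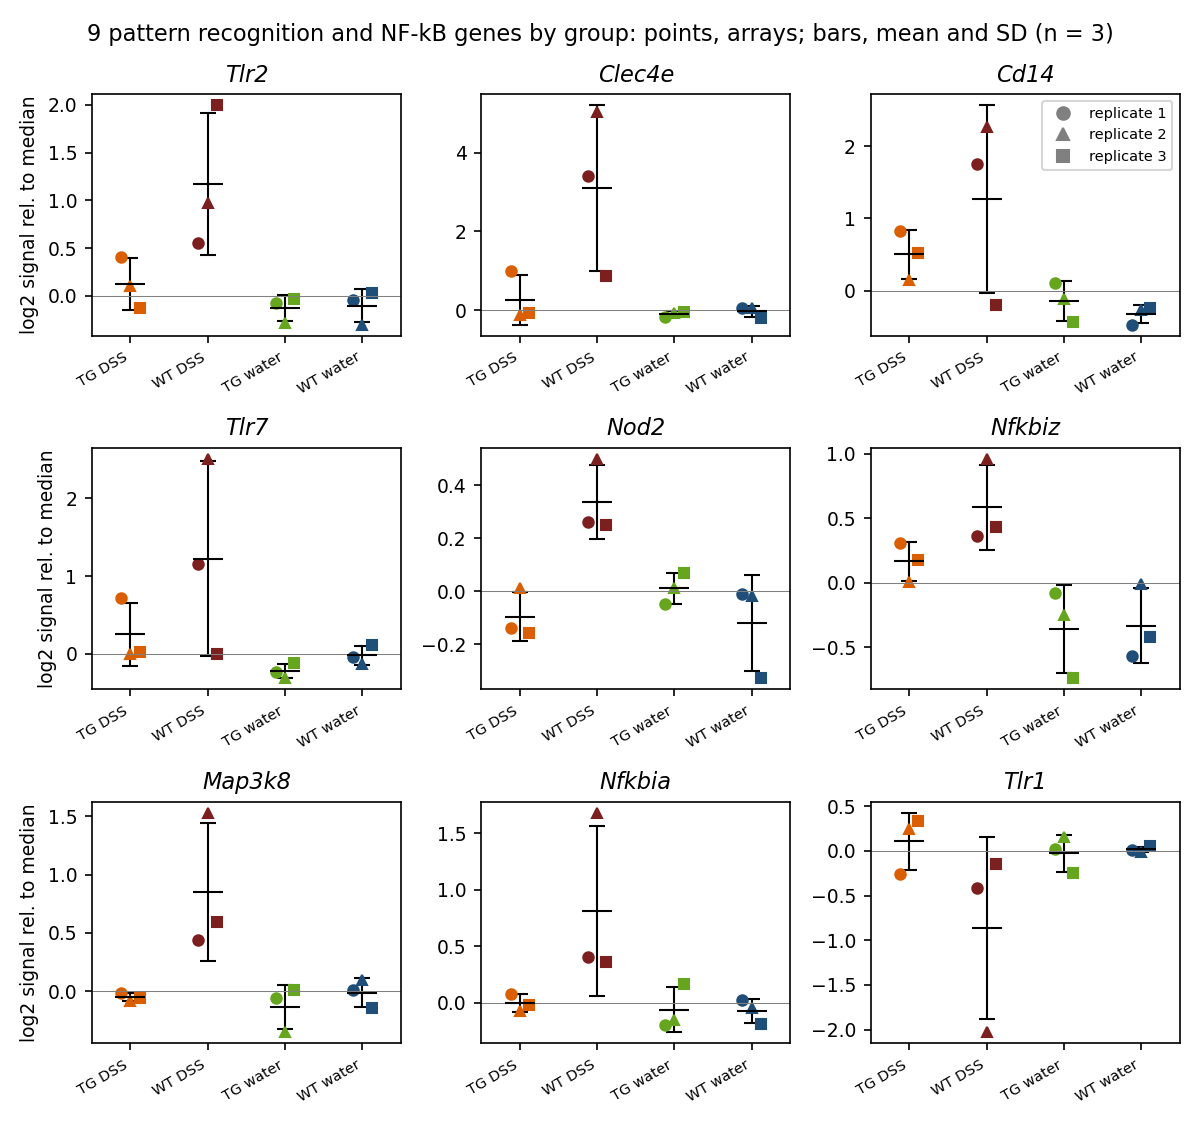
Values of 9 of the genes by group, with the TG DSS, WT DSS, TG water and WT water groups from left to right, points for single arrays (circle, triangle and square for replicates 1, 2 and 3) and bars for the mean and SD (n = 3). The vertical axis is the log2 signal with each gene's median at 0 and its range differs between panels. Tlr2 is highest on WT DSS replicate 3 at 2.00, Clec4e, Cd14 and Tlr7 are highest on replicate 2, and the 3 Nod2 values of WT DSS, from 0.25 to 0.50, lie above those of every other group.

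Of the 3 measured NF-kB subunits and 4 IkB proteins, Nfkb2, Relb, Nfkbia, Nfkbie and Nfkbiz were separate between WT DSS and WT water, and Rela and Bcl3 were not. Nfkb2, the gene of p100 and p52 of the alternative pathway, read 0.41, 1.34 and 0.31 in WT DSS and -0.06, -0.06 and -0.12 in WT water. The groups are well separate, and the difference was 0.77 ± 0.22 (limma adjusted p = 0.162). Relb, its partner, was also separate but by small amounts, with 0.38, 0.12 and 0.03 in WT DSS against 0.00, -0.17 and -0.05 in WT water (difference 0.25 ± 0.10; limma adjusted p = 0.272). Rela, which encodes p65 of the classical pathway, read 0.08, 0.97 and 0.04 in WT DSS and 0.06, -0.08 and 0.02 in WT water, and thus stood out on replicate 2 alone.

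Nfkbia encodes IkB-alpha, and read 0.40, 1.68 and 0.36 in WT DSS against 0.02, -0.05 and -0.19 in WT water. All DSS arrays are higher, with a difference of 0.88 ± 0.29 (limma adjusted p = 0.205). Nfkbie, the gene of IkB-epsilon, read 0.66, 2.33 and 0.01 in WT DSS and -0.03, -0.01 and -0.15 in WT water, so that the groups are separate by a narrow gap at replicate 3. Nfkbiz encodes IkB-zeta, a nuclear co-activator of secondary NF-kB targets, and had the smallest p of the 33. It read 0.36, 0.96 and 0.43 in WT DSS and -0.57, -0.01 and -0.42 in WT water, without overlap (difference 0.92 ± 0.22, or 1.89-fold; limma adjusted p = 0.105). Bcl3, a further nuclear IkB protein, read -0.22, 0.81 and -0.72 in WT DSS against -0.20, 0.19 and -0.11 in WT water, and its mean difference was 0.00 ± 0.31.

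Of the remaining regulators, Map3k8 encodes the kinase Tpl2, which links the pathway to ERK, and read 0.44, 1.53 and 0.59 in WT DSS against 0.01, 0.10 and -0.14 in WT water. The groups are clearly separate, and the difference was 0.86 ± 0.24 (limma adjusted p = 0.144). Tnfaip3, the gene of the ubiquitin-editing inhibitor A20, read 0.26, 1.50 and -0.12 in WT DSS and 0.18, -0.17 and -0.19 in WT water, with overlap. Tnip1, whose product works with A20, read -0.21, 0.11 and -0.11 in WT DSS and 0.36, -0.25 and 0.30 in WT water, and Birc3, the ubiquitin ligase cIAP2, read 0.19, 0.72 and -0.03 against 0.02, -0.02 and -0.20. None of these 3 was separate, and their differences were 0.61 ± 0.33, -0.21 ± 0.18 and 0.36 ± 0.16.

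Promoter sequence was compared for the kappaB consensus, the short site of NF-kB dimers, because Nfkbia, Nfkb2 and Tlr2 were separate in WT whereas Tnip1 was not. The windows are those of RefSeq on GRCm38.p6, from 250 bases before to 50 bases after each annotated start, and 28 of the 37 genes had at least 1. The consensus, searched on both strands and with overlapping matches counted, was found for 9 of these 28 genes (32.1%) and for 9.55% of all 27025 genes with a window. The 9 were Bcl3, Irak1, Nfkb2, Nfkbia, Nfkbie, Tlr2, Tlr3, Tnfaip3 and Tnip1, and of these Nfkb2, Nfkbia, Nfkbie and Tlr2 were among the 13 genes separate and higher in WT. Clec4e, Clec7a, Nod2 and Myd88, also separate, held no match in their windows. Tlr4, Cd14, Relb, Nfkbiz and Map3k8, the other genes separate and higher in WT, had no window and were not searched. The 28 include Tlr5 and Irak4, which were not measured on the arrays. A match is a description of the letters and not evidence of binding. Below, capitals mark the matched bases, and matches that overlap by all but 1 or 2 bases run together.
Nfkbia, chr12:55492598-55492897, minus strand: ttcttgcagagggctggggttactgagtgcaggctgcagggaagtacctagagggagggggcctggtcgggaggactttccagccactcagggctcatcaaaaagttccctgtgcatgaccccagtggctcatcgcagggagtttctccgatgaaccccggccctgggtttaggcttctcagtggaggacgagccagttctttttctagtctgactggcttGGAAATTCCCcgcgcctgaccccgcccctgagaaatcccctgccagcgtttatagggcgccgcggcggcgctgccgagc
Nfkb2, first of 3 windows, chr19:46304487-46304786, plus strand: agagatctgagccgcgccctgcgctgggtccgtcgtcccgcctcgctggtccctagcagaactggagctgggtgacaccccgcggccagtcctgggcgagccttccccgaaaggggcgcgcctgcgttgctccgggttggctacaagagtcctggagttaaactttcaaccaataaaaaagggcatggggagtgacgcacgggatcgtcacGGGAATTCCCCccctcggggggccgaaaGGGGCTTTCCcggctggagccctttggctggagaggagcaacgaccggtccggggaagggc
Tlr2, chr3:83841559-83841858, minus strand: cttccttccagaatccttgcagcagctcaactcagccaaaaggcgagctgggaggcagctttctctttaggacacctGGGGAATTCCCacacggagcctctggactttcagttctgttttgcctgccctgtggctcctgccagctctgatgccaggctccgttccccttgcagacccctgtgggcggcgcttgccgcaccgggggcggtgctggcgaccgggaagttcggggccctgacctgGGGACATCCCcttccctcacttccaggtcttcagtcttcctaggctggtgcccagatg
Tnip1, chr11:54962891-54963190, minus strand: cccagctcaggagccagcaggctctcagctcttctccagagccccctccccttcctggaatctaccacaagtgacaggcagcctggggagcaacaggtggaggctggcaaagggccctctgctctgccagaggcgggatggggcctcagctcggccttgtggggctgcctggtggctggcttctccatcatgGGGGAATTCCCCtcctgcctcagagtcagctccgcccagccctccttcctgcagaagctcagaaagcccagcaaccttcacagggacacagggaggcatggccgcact

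Counted from the annotated start, the Nfkbia match begins at -29, those in the first Nfkb2 window at -39, -38 and -11, and those of Tlr2 at -173, -172 and -8. The other Nfkb2 windows, not shown, hold matches at -236 and 11 and at -225, each counted from its own start. Tnip1, with 3 overlapping matches from -58 to -56, nevertheless overlapped between the groups. Genes with a match were thus found both among the separate genes and among the others.

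The 3 WT DSS arrays varied widely among themselves. The SD of the 33 had a median of 0.60 in WT DSS, against 0.13 in WT water, and 27 of the 33 had their largest SD in WT DSS. WT DSS replicate 2 was the highest of its group for 25 of the 33, where 34.8% of all genes were highest there, and WT DSS replicate 3 was the lowest for 24, where 28.7% of all genes were lowest there. Both held at once for 21 of the 33 and for 17.8% of all genes. Above the highest of all 6 water arrays lay 23, 26 and 12 of the 33 on WT DSS replicates 1, 2 and 3, or 69.7%, 78.8% and 36.4%, against 15.4%, 25.5% and 19.6% of all genes. On replicate 3 those 12 were Tlr2, Tlr4, Tlr3, Myd88, Traf6, Nod2, Clec7a, Clec4e, Nfkb2, Nfkbia, Nfkbiz and Map3k8.

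Without WT DSS replicate 2, the array with low epithelial markers, the same 13 genes were separate and higher and no other joined them, against 9.11% of all genes, although leaving out an array can only add genes to such a count. Tirap and Bcl3 then joined Tlr1 as separate and lower, against 15.1% of all genes. Leaving out replicate 3 raised the count to 23 of the 33, against 11.6% of all genes, and leaving out replicate 1 gave 14, against 11.2%. The limma calls depended on these arrays too. Without WT DSS replicate 3, 7 of the 33 passed (21.2%), namely Cd14, Clec4e, Clec7a, Myd88, Tlr2, Tlr7 and Tlr8, against 2.88% of all genes. Without replicate 1, 3 passed (9.09%), namely Map3k8, Nfkbiz and Tlr2, against 4.61% of all genes. Without replicate 2 none of the 33 passed, against 0.461% of all genes.

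**Figure D3:**
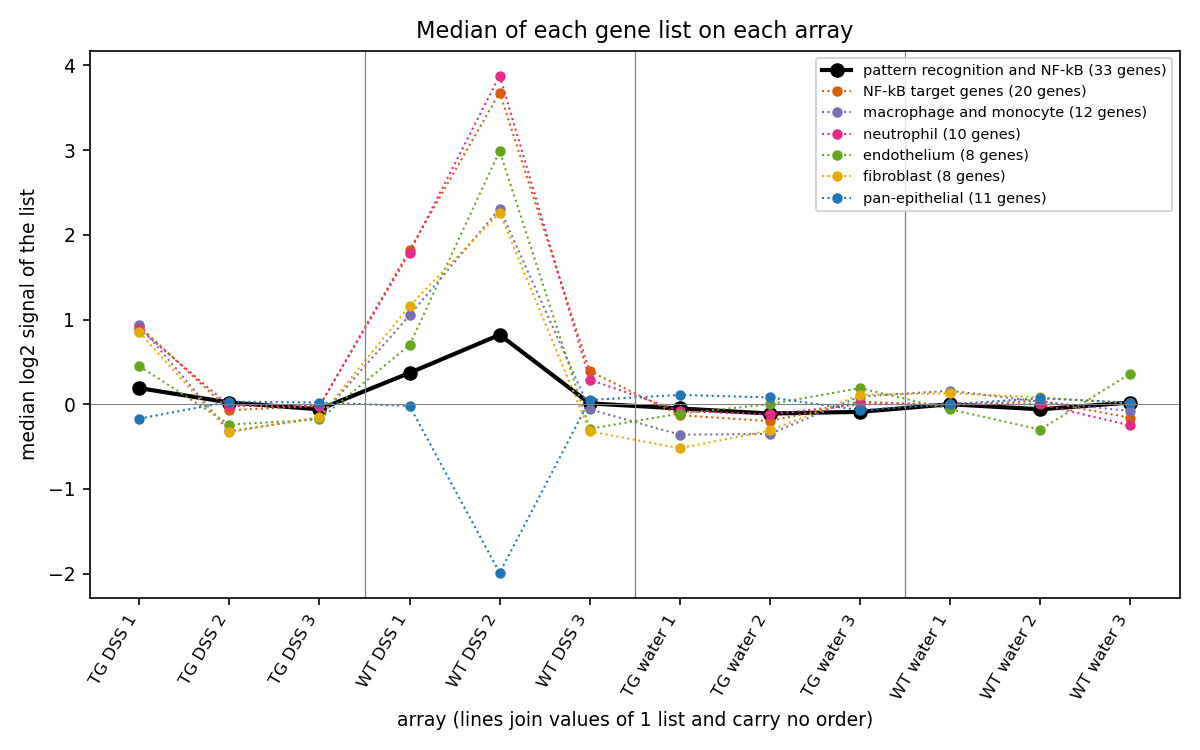
Median log2 signal of each gene list on each array, for the 33 pattern recognition and NF-kB genes (black), 20 NF-kB target genes and markers of 5 cell types, with lines joining the values of 1 list. The black line stands at 0.19 on TG DSS replicate 1 and at 0.37 and 0.82 on WT DSS replicates 1 and 2, the arrays on which the macrophage, neutrophil, endothelium and fibroblast markers are raised, and the pan-epithelial markers are at -1.99 on WT DSS replicate 2.

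In TG mice the differences between DSS and water were small, and TG DSS replicate 1 held most of the high values. None of the 33 passed in limma, where 0% of all genes did. Only Nfkbiz had an unadjusted p under 0.05, and 2.38% of all genes reached it. The median difference was 0.16 with 26 of the 33 above 0, and the median of all genes was -0.01. Without TG DSS replicate 1 the median of the 33 was 0.06. The arrays were fully separate for 7 genes (21.2%), all higher, namely Tlr7, Cd14, Myd88, Irak1, Traf6, Nod1 and Nfkbiz, against 6.76% of all genes higher and 6.64% lower. Of these, Myd88 was separate by less than the rounding of its values.

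Nfkbiz read 0.31, 0.01 and 0.18 in TG DSS replicates 1, 2 and 3, against -0.08, -0.25 and -0.74 in TG water replicates 1, 2 and 3. All DSS values are higher, and the difference of 0.53 ± 0.22 was 1.44-fold (limma adjusted p = 1). Tlr4 read 0.39, -0.13 and 0.04 in TG DSS and -0.04, -0.21 and -0.65 in TG water, with overlap through replicate 2. Irak2 read -0.41, 0.15 and -0.21 in TG DSS and 0.17, 0.26 and 0.02 in TG water, so that replicates 1 and 3 were low while replicate 2 lay among the water arrays (difference -0.31 ± 0.17; limma adjusted p = 1). Irak1 read 0.10, 0.03 and 0.14 in TG DSS and -0.01, -0.10 and -0.11 in TG water, and Traf6 read 0.19, 0.11 and 0.02 against -0.02, -0.03 and -0.23. Both are separate by small amounts, with differences of 0.17 ± 0.11 and 0.20 ± 0.13.

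Clec4e, Clec7a, Tlr7 and Tlr13, with large differences in WT, were higher on TG DSS replicate 1 than on TG DSS replicates 2 and 3. Clec4e read 1.00, -0.13 and -0.07 in TG DSS, and Clec7a read 1.17, 0.03 and -0.18. Tlr7 read 0.72, 0.00 and 0.02 and Tlr13 read 0.80, -0.46 and -0.22 on the same arrays. For Tlr7 all 3 TG DSS values nevertheless lay above TG water, at -0.24, -0.31 and -0.12. Irak3, also with a large difference in WT, read 0.28, -0.25 and -0.19 in TG DSS against -0.13, -0.07 and 0.07 in TG water. Cd14 read 0.83, 0.15 and 0.52 in TG DSS against 0.11, -0.11 and -0.44 in TG water, and Nod1 read 0.33, 0.15 and 0.35 against -0.06, 0.06 and -0.35. Macrophage markers were raised on TG DSS replicate 1 as well, with Csf1r at 0.90, -0.43 and -0.57 and Adgre1 at 0.86, -0.32 and -0.18 on TG DSS replicates 1, 2 and 3. S100a8, Pecam1, Col1a1 and Cd3e were also highest of the TG DSS arrays on replicate 1, at 1.31, 0.46, 1.18 and 0.28. Epcam and Cdh1 were lowest there, both at -0.21. The part of these cell types was not tested. Cd180 read 0.85, -0.02 and -0.75 on the TG DSS arrays, where the B cell markers had medians of 1.07, 0.26 and -1.01, and it read -0.45, -0.92 and 0.57 on the TG water arrays, where they had -0.13, -1.11 and 0.50.

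Above the highest of the 6 water arrays lay 18, 9 and 7 of the 33 on TG DSS replicates 1, 2 and 3, or 54.5%, 27.3% and 21.2%, against 20%, 10.3% and 14.7% of all genes. Cd14, Myd88, Irak1 and Nfkbiz were among them on all 3 arrays. Myd88 read 0.59, 0.00 and 0.00 in TG DSS against 0.00, -0.11 and -0.09 in TG water. Only its replicate 1 was clearly raised, and replicates 2 and 3 cleared water by less than the rounding of these values. Nfkbiz on replicate 2, at 0.01, was only just above the highest water value of -0.01.

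**Figure D4:**
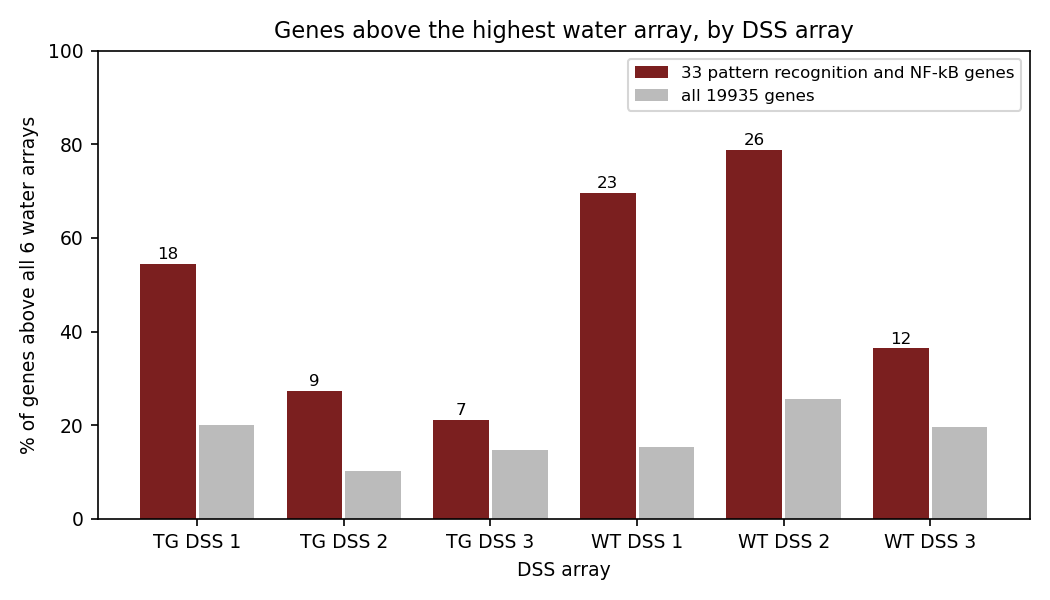
Share of genes above the highest of the 6 water arrays on each DSS array, for the 33 genes (dark bars, with their number on top) and for all 19935 genes (grey bars). The dark bars run from 21.2% on TG DSS replicate 3 to 78.8% on WT DSS replicate 2 and are taller than the grey bars on all 6 arrays.

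On water the transgene was accompanied by little difference in these genes. None of the 33 passed in limma or had an unadjusted p under 0.05, where 0% and 0.306% of all genes did. The median difference of TG water minus WT water was -0.03, and that of all genes was 0.01. No gene was fully separate upward, where 1.93% of all genes were, and Tirap and Clec7a were separate downward, where 3.05% were. Tirap, the adaptor that brings MyD88 to surface receptors, read -0.08, -0.20 and -0.34 in TG water replicates 1, 2 and 3, against 0.19, 0.13 and 0.50 in WT water. Its difference was -0.48 ± 0.23 (limma adjusted p = 1), and under DSS its TG and WT arrays overlapped. Clec7a read -0.38, -0.34 and -0.13 in TG water and 0.05, -0.06 and -0.03 in WT water, a narrow gap. Of the macrophage markers, Adgre1 differed most, with -0.54, -0.39 and -0.18 in TG water against 0.48, 0.08 and 0.04 in WT water. Csf1r overlapped, at -0.69, -0.52 and 0.24 against 0.35, 0.01 and -0.01. The medians of the 12 markers overlapped too, at -0.36, -0.35 and 0.09 against 0.16, 0.03 and -0.08. The part of macrophages in the Clec7a values was not tested.

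Nod2 read -0.05, 0.01 and 0.07 in TG water and -0.01, -0.02 and -0.33 in WT water, and the groups overlap (difference 0.13 ± 0.11). Irak1 and Map3k8 differed by -0.06 ± 0.11 and -0.12 ± 0.24, also with overlap. Ly96 read 0.45, -0.62 and -0.67 in TG water and -0.63, -1.12 and 0.05 in WT water, so its spread on water, with an SD of 0.63 in TG and 0.59 in WT, exceeded its difference of 0.29 ± 0.49.

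Under DSS the TG arrays read lower than the WT arrays for most of these genes. None of the 33 passed in limma, where 0.0401% of all genes did, and 9 had an unadjusted p under 0.05, with 8 lower and 1, Tlr1, higher, against 15.9% of all genes. The median difference of TG DSS minus WT DSS was -0.33 with 26 of the 33 below 0, and the median of all genes was 0.04. The arrays were fully separate and lower in TG for 7 genes (21.2%), against 4.9% of all genes, and separate and higher in TG for none, against 14.1%. Those 7 were Tlr2, Nod2, Nfkb2, Relb, Nfkbia, Nfkbiz and Map3k8, Relb by less than the rounding of its values. The median was -0.21 without WT DSS replicate 2 and -0.16 with quantile normalization. This comparison shares the WT DSS arrays with that of DSS in WT, so their values are not independent.

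Nod2 averaged -0.10 ± 0.09 in TG DSS and 0.34 ± 0.14 in WT DSS (SD, n = 3 each). No TG array, at -0.14, 0.01 and -0.16, reached the lowest WT array at 0.25, and the difference was -0.43 ± 0.11 (SE; limma adjusted p = 0.134). Map3k8 averaged -0.05 ± 0.04 in TG DSS and 0.85 ± 0.59 in WT DSS, with a difference of -0.90 ± 0.24 (limma adjusted p = 0.139). Its TG DSS values of -0.01, -0.08 and -0.06 were close to one another and lay within the range of the water arrays.

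Clec4e averaged 0.27 ± 0.64 in TG DSS and 3.11 ± 2.11 in WT DSS, a difference of -2.84 ± 0.80 (limma adjusted p = 0.157). The groups overlap, because TG DSS replicate 1 at 1.00 exceeded WT DSS replicate 3 at 0.86. Tlr2 read 0.41, 0.10 and -0.13 in TG DSS and averaged 0.13 ± 0.27, against 1.17 ± 0.75 in WT DSS, a difference of -1.05 ± 0.30 (limma adjusted p = 0.165). Nfkb2 read 0.10, 0.08 and -0.02 in TG DSS, all below the lowest WT DSS value of 0.31 (difference -0.63 ± 0.22; limma adjusted p = 0.218). Nfkbia read 0.08, -0.07 and -0.02 in TG DSS, again below the lowest WT DSS value of 0.36 (difference -0.82 ± 0.29; limma adjusted p = 0.23). Tlr1 averaged 0.10 ± 0.32 in TG DSS and -0.86 ± 1.02 in WT DSS and differed by 0.97 ± 0.40 (limma adjusted p = 0.285), and WT DSS replicate 2 alone stood far from the TG arrays.

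Without WT DSS replicate 3, 18 of the 33 were separate and lower in TG, against 11.2% of all genes, and without TG DSS replicate 1, 14 were, against 11.7%. Limma passed 3 of the 33 (9.09%) without WT DSS replicate 3, namely Cd14, Clec4e and Clec7a, against 0.823% of all genes. It passed 2 (6.06%) without WT DSS replicate 1, namely Map3k8 and Tlr2, which is near the 5.85% of all genes. Pan-epithelial markers had a median difference of 0.59 between TG DSS and WT DSS, macrophage markers of -0.97 and neutrophil markers of -1.62, and their part in the lower TG values was not tested.

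**Figure D5:**
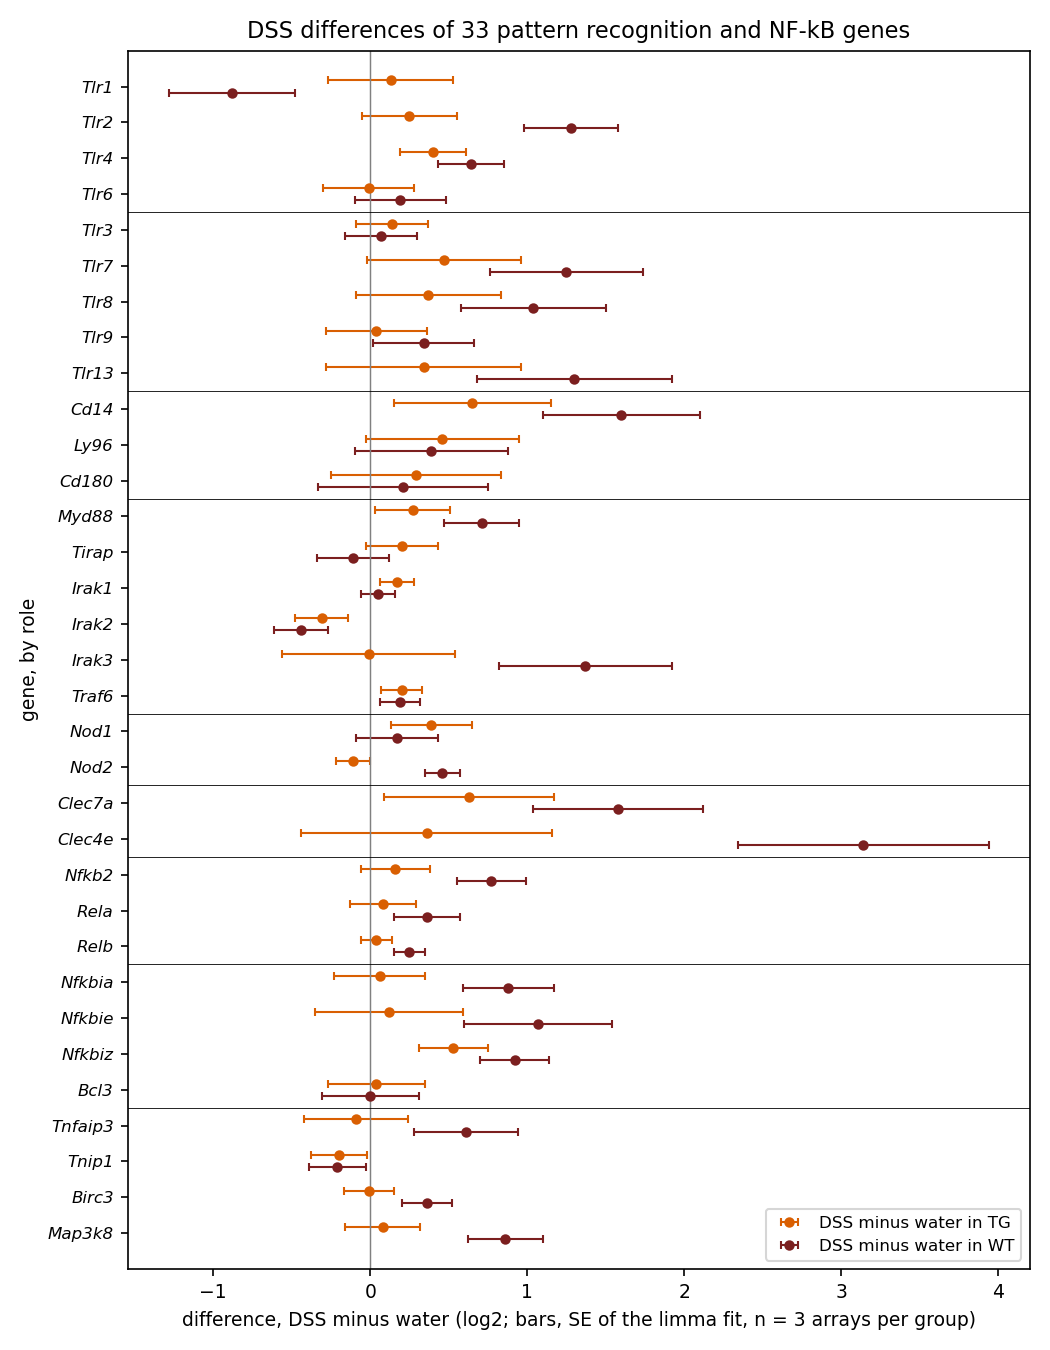
Difference of DSS minus water on the log2 scale for each of the 33 genes (down, by role), in TG (orange, upper point of each pair) and in WT (dark red, lower point), with bars for the SE of the limma fit (n = 3 arrays per group). The WT point lies right of the TG point for Clec4e, Tlr2, Nod2 and Map3k8 by more than both bars, and left of it for Tlr1.

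Whether the DSS difference itself depended on genotype was tested by the interaction, the DSS difference in TG minus that in WT. None of the 33 passed in limma, where 0% of all genes did, and 4 had an unadjusted p under 0.05, against 5.85% of all genes. The median over the 33 was -0.37, and that over all genes was 0.01. Without WT DSS replicate 2 the median of the 33 was -0.14, and with quantile normalization it was -0.18. The 4 were Nod2 at -0.57 ± 0.15, Clec4e at -2.78 ± 1.14, Tlr2 at -1.02 ± 0.43 and Map3k8 at -0.78 ± 0.33, with limma adjusted p-values of 0.797, 0.827, 0.831 and 0.831. Nfkbia was next, at -0.83 ± 0.41 (limma adjusted p = 0.852). For Nod2 the DSS difference was -0.11 ± 0.11 in TG and 0.46 ± 0.11 in WT, and for Nfkbiz it was 0.53 ± 0.22 in TG and 0.92 ± 0.22 in WT (interaction -0.39 ± 0.31). A dependence on genotype was thus not shown for any of the 33.

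Other components of the pathway were listed by name. Of 46 such genes 43 were measured, and their median difference was 0.05 for DSS in TG and 0.12 for DSS in WT, with none passing in limma in any of the 5 comparisons. At an unadjusted p under 0.05 there were 5 for DSS in TG, 4 higher and 1 lower, and 14 for DSS in WT, 10 higher and 4 lower, against 2.38% and 15.2% of all genes in these comparisons. Unc93b1, which escorts endosomal Toll-like receptors, read 0.39, 0.56 and 0.28 in WT DSS and -0.04, -0.02 and -0.16 in WT water (difference 0.49 ± 0.09; limma adjusted p = 0.0631). Its 3 DSS values lie well above water, and in TG the difference was 0.25 ± 0.09. Mavs, the mitochondrial adaptor of cytosolic RNA sensors, read -0.43, -0.65 and -0.45 in WT DSS and 0.00, -0.12 and 0.06 in WT water (difference -0.49 ± 0.09; limma adjusted p = 0.067), whereas in TG DSS it read 0.00, 0.12 and 0.11. Mavs was thus below water on all 3 WT DSS arrays and near water on the TG DSS arrays (interaction 0.54 ± 0.13; limma adjusted p = 0.797).

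Zc3h12a, the gene of the RNase regnase-1, which degrades inflammatory transcripts, had the smallest p of these 43 for DSS in TG. It read 0.54, 0.08 and 0.19 in TG DSS against -0.31, -0.10 and -0.32 in TG water, and 0.34, 0.42 and 0.42 in WT DSS against -0.59, -0.09 and -0.08 in WT water. Its groups are separate in both genotypes, with differences of 0.52 ± 0.16 in TG and 0.65 ± 0.16 in WT (limma adjusted p = 1 and 0.108). Ikbkb, the kinase IKK-beta that marks IkB proteins for degradation, differed by 0.31 ± 0.08 in WT (limma adjusted p = 0.141).

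The 20 listed genes that NF-kB is known to induce include cytokines and chemokines. Their median difference was 0.42 for DSS in TG and 2.19 for DSS in WT. In TG 16 lay above 0 and 4 below. In WT 19 lay above 0 and 1, Ccl20, below (-0.95 ± 0.28; limma adjusted p = 0.164). Saa3, an acute-phase protein, was the 1 of them that passed in WT, against 0.171% of all genes. None passed in the other 4 comparisons, where at most 0.0401% of all genes did. The list was written with earlier results of these arrays known, so its direction is no independent evidence. Tnf, the cytokine, was close to equal on the 3 WT DSS arrays, with 1.44, 1.39 and 1.13 in WT DSS against -0.02, -0.04 and -0.60 in WT water (difference 1.54 ± 0.25; limma adjusted p = 0.0511), and with 0.74, 0.47 and -0.11 in TG DSS against -0.61, -0.11 and 0.02 in TG water. Cxcl2, a neutrophil chemokine, read 0.88, -0.11 and -0.17 in TG DSS and 4.38, 6.18 and 2.30 in WT DSS. It was above water, at most 0.31, on WT DSS replicate 3 as well. Neutrophil markers had a median of 0.29 there, with S100a8 at 0.65 against at most 0.22 on water, and macrophage markers had one of -0.06. The part of these cells in the Cxcl2 values was not tested. On that array the median of the 20 targets was 0.39, against 1.82 and 3.68 on WT DSS replicates 1 and 2 and 0.92, -0.07 and -0.02 on TG DSS replicates 1 to 3.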

How the data were processed

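The authors deposited 1 table of log2 signals, with 28815 probe sets on 12 Affymetrix mouse gene arrays. The submitters' processing notes name RMA and Affymetrix Expression Console without versions. The log base is not stated, and the deposited values were taken as log2, which is what RMA returns. Each probe set has a median of 0 over the 12 arrays (to within 5.0e-07), so a filter on dim probe sets was not possible. The number of arrays limits the precision.

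Probe sets with exactly 1 symbol in the platform annotation, which can be old (21780; 1605 had several and 5430 none) were averaged to 19935 genes. A model of 4 group means over the 12 arrays was fitted (lmFit and eBayes of limma 3.58.1, R 4.3.3), with two-sided p-values adjusted by Benjamini-Hochberg over all genes in each of 5 comparisons and a threshold of 0.05. The script was tested on simulated data in which each gene had the same SD in all groups, so that test does not cover groups of unequal spread. The unequal spread of the groups makes the pooled SE too small for WT DSS and too large for the water arrays.

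The members and gene lists were chosen with earlier results of these data known. All members may be named. Values on every array were due, by rule, for the 5 members with the smallest p per comparison and, of the 2 pathway lists, the 4 smallest could be named; array values of other members were chosen after they were seen. No array value column was left unused, and no pair of arrays was identical.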

Additional observations from a re-analysis of the deposited data

How the results depend on the processing

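Alternatives were a fit of the 6 arrays of 2 groups, a replicate block, array centring, quantile normalization, trended and robust eBayes, weights per array or group, genes with a single probe set, a threshold of 0.1 and leaving out each array in turn. Omitting WT DSS replicates 2 and 3 together, or each DSS array from the counts of separate arrays, was chosen after seeing the data. A filter on dim probe sets was not run, since the values are centred.

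For DSS in WT, 34 of all genes passed. The count was 0 with the 6 arrays, the replicate block, quantile normalization and weights per group, 2 with trend and robust, 754 with weights per array, 276 at an adjusted p under 0.1 and 158 without WT DSS replicates 2 and 3. For TG against WT under DSS, 8 passed, against 0 with the 6 arrays, the replicate block, quantile normalization, trend and robust, and weights per group, 4 with array centring, 273 with weights per array, 110 at an adjusted p under 0.1 and 56 without WT DSS replicates 2 and 3. Where 0 passed, weights per array gave 4 for DSS in TG, 1971 for TG against WT on water and 12 for the interaction, which had 22 without WT DSS replicates 2 and 3.

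No member passed in the main fit. Weights per array passed 6 members for DSS in WT, or 18.2%, against 3.78% of all genes. They passed 1 for TG against WT on water, or 3.03% against 9.89% of all genes. For TG against WT under DSS they passed 1, or 3.03% against 1.37%. Without WT DSS replicates 2 and 3, the members' median was 0.45 for DSS in WT, -0.35 for TG against WT under DSS and -0.37 for the interaction. That fit keeps 1 WT DSS array, assumed to vary like the other groups. The members' median on water was -0.09 with weights per array.

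With 1 array left out, passing genes ranged from 0 to 919 for DSS in WT, 0 to 1166 for TG against WT under DSS and 0 to 239 for the interaction, and were 0 throughout for the other comparisons. Passing members ranged from 0 to 7, from 0 to 3, and 0 throughout elsewhere. Their median ranged from 0.32 to 0.68 for DSS in WT, 0.06 to 0.20 for DSS in TG, -0.07 to 0.01 for TG against WT on water, -0.49 to -0.21 for TG against WT under DSS and -0.53 to -0.14 for the interaction. The 919, 1166 and 239 genes were reached without WT DSS replicate 1, and the 7 and 3 members without WT DSS replicate 3. Passing genes for DSS in WT numbered 0 to 3 when any 1 water array was left out. Groups share replicate numbers, and no label says that these pair arrays. Deviations of same-numbered arrays from their group means correlated between -0.484 and 0.377. Correlations of differently numbered arrays were not computed, so this range cannot decide whether the numbers pair arrays. The replicate block passed 0 members in every comparison. The causes of these differences were not tested.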
